A study of Mus musculus with 6 samples.

Results

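Astrocytes are glia, yet arrays run on astrocyte RNA also report signal for genes usually used to mark neurons. The account below follows 36 such genes in astrocytes of the cerebellum and the neocortex of mice. They encode microtubule proteins, neurofilaments, proteins of synaptic vesicle release, RNA-binding proteins, calcium-binding proteins and a few enzymes and surface proteins. The list was drawn up with earlier results of these data known, and its probe sets were then taken by gene symbol, current or former. All 36 had a probe set, 82 of 45037 in total, where a probe set is a group of short oligonucleotides that reports 1 transcript. The array named 18193 genes in all. Of the members, 17 had 1 probe set and 19 had more, up to 6.

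The study hybridised 6 single-colour Affymetrix arrays, 3 with RNA of cerebellar astrocytes and 3 with RNA of neocortical astrocytes. For both groups the labels name region and organism without a genotype, age or treatment, and the ICR strain is named for the neocortical arrays alone. Region and strain therefore cannot be told apart if the cerebellar cells came from another strain. The labels do not say how the astrocytes were obtained, or whether each array had its own animals or culture. The p-values therefore cover the spread between these arrays, which may be technical.

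Neurons assemble long processes from microtubules and neurofilaments, and they release transmitter when calcium makes synaptic vesicles fuse with the membrane. Most of the genes described here serve one of those tasks. The transcription factor REST represses many such genes in cells that are not neurons, and young neurons and glia arise from common progenitors. Astrocyte preparations can also hold neurons, oligodendrocyte lineage cells, microglia and fibroblasts.

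Signal was judged against 24 control probe sets for bacterial transcripts (bioB, bioC, bioD, cre and dap), which served as the background. A gene was counted as above the controls in a region where 1 of its probe sets exceeded the highest control on all 3 arrays. By this rule 21 of the 36 genes were above the controls on all 3 cerebellar arrays and 26 on all 3 neocortical arrays, and 21 on all 6 arrays. Among all genes on the array, 63.4% were above on all 3 cerebellar arrays, 72.2% on all 3 neocortical arrays and 62.8% on all 6, so the share of neuronal genes was near that of the array at large. The 5 genes above on all neocortical arrays only were Stmn3, Ina, Elavl2, Elavl4 and Vsnl1, 0 genes were above on all cerebellar arrays only, and 10 were above throughout neither region. The highest control differed between groups, at 120.3, 269.2 and 155.1 on cerebellar arrays 1 to 3, against 71.9, 104.3 and 88.1 on neocortical arrays 1 to 3. A gene of equal signal therefore passed more easily on the neocortical arrays. Against each array's own 40th percentile of mouse probe sets, a cut chosen after the data were seen, the counts were 23 cerebellar and 22 neocortical genes. The bar of 2 times the highest control left 15 cerebellar and 22 neocortical genes, and this bar too was higher on the cerebellar arrays. Shares of all genes at these other cuts are not given, so their counts cannot be set against the array at large.

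**Figure D1:**
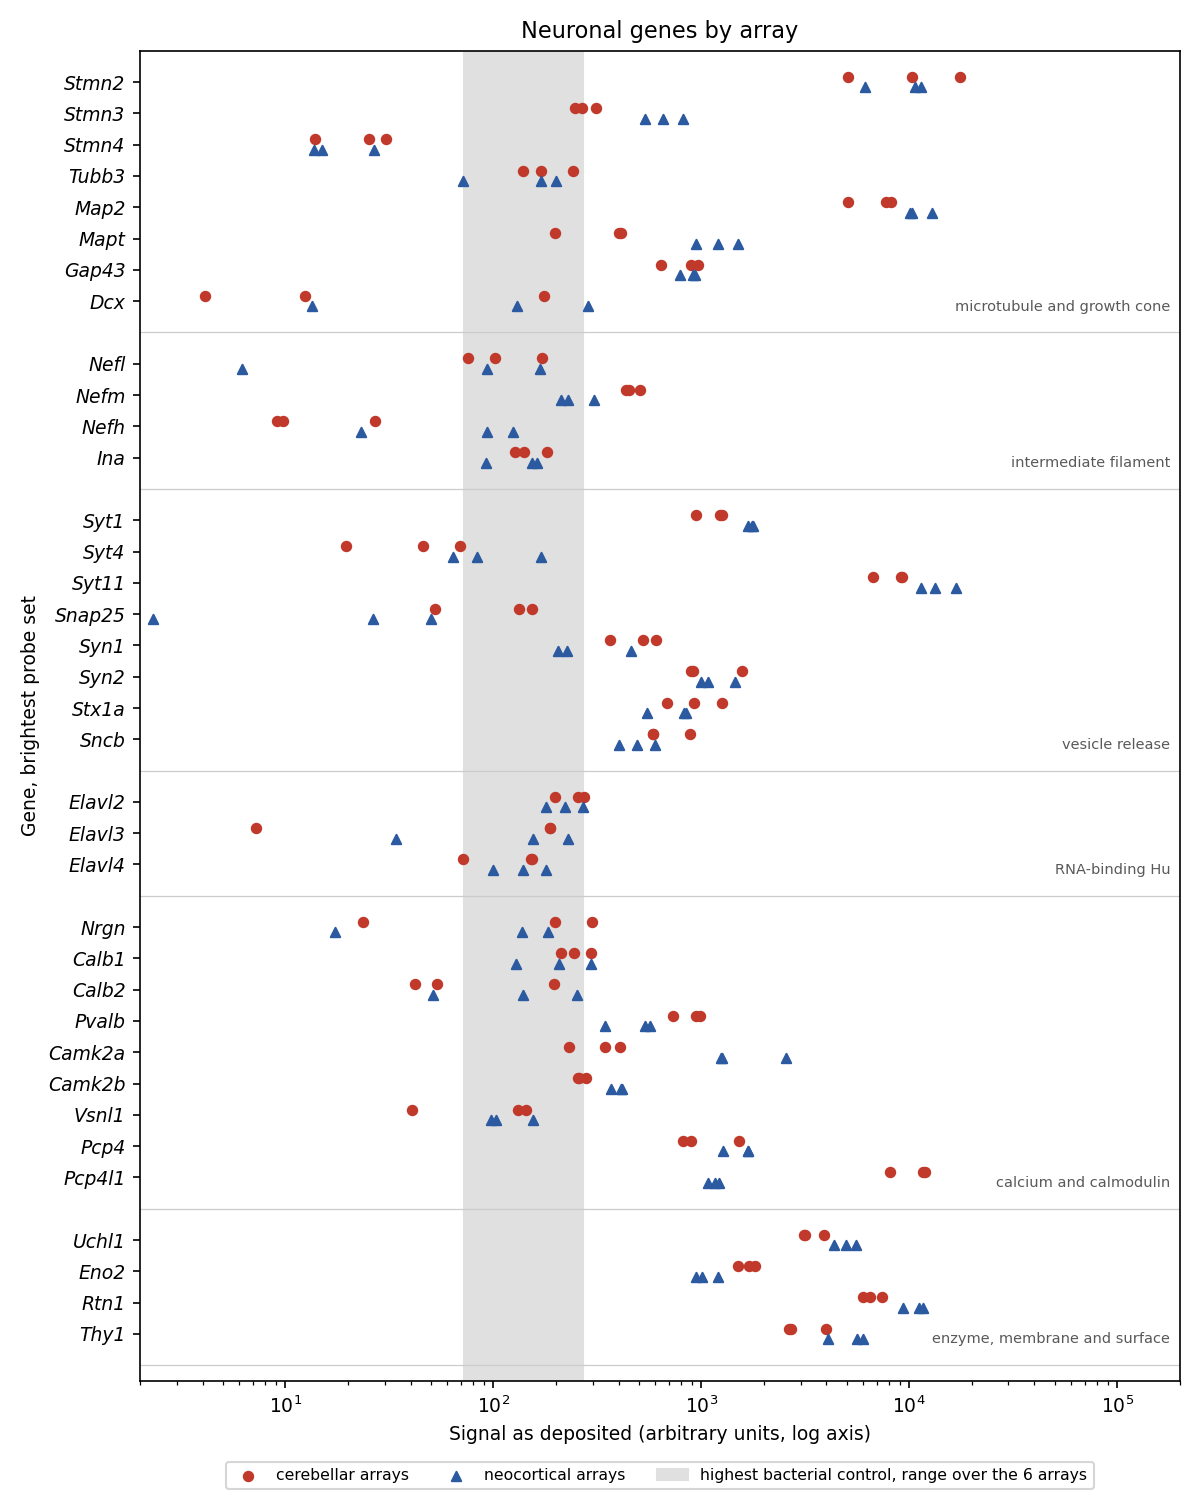
Deposited signal of the brightest probe set of each of the 36 neuronal genes, on a log axis in arbitrary units, with cerebellar arrays as circles above neocortical arrays as triangles. The grey band spans the highest bacterial control of the 6 arrays, 71.9 to 269.2. Genes such as Stmn4 and Nefh lie in or below the band, and the Pcp4l1 circles lie apart from the triangles.

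The regions were compared after quantile normalization, with limma's moderated test on log2 signal and Benjamini-Hochberg adjustment over 27022 probe sets. A probe set was tested where its mean log2 signal corresponded to 169.29 or more, the 40th percentile. Differences are cerebellar minus neocortical on the log2 scale with their standard errors, folds derive from them, and signals of single arrays are given as deposited. A gene was read at its brightest probe set, and a call needed an adjusted p under 0.05. By this reading 23 of the 36 genes were tested. Of these 23, 8 were lower in cerebellar astrocytes, namely Stmn3, Mapt, Syt1, Syt11, Camk2a, Uchl1, Rtn1 and Thy1, and 2 were higher, Pcp4l1 and Eno2. The other 13 tested genes did not pass, and 13 genes were too dim to be tested. Over all 12616 genes tested, 7.36% were lower and 5.3% were higher. The members that passed the filter are the brighter ones, so their share called is not a property of all 36.

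The median log2 difference of the 23 tested neuronal genes was -0.202, against -0.015 over all tested genes. Over all 36 it was -0.192, against 0 over all genes on the array. The median of the tested genes was -0.449 when cerebellar array 2 was left out, -0.345 without cerebellar array 1, and -0.095 on the values as deposited. Relative to the neocortical mean, the median of the tested neuronal genes was -0.11, -0.321 and -0.436 on cerebellar arrays 1 to 3, against -0.092, 0.026 and 0.015 on neocortical arrays 1 to 3. Every cerebellar array thus lay below every neocortical array, with cerebellar array 1 and neocortical array 1 next to each other. In RNA from whole samples, fewer cells of a type and less RNA per cell cannot be told apart.

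Counted by probe set, 41 of the 82 reached the filter. Of these, 16 were lower and 2 higher in cerebellar astrocytes, and 23 did not pass. The share of all tested probe sets was 5.72% lower and 4.88% higher. Quantile-normalized signals did not overlap between regions for 20 of the 41 with the cerebellar arrays lower and for 4 with them higher. Over all tested probe sets those shares were 15.7% lower and 16.5% higher. No neuronal gene had probe sets passing in opposite directions.

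**Figure D2:**
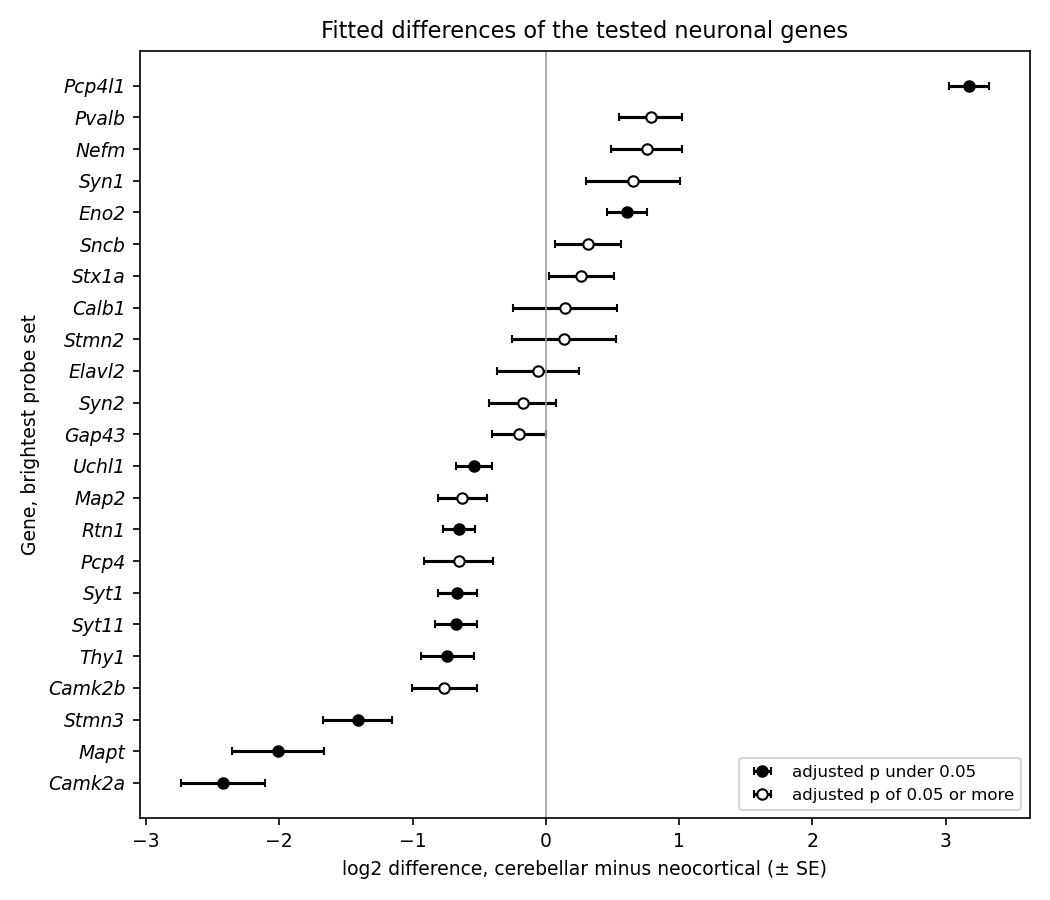
Fitted log2 difference, cerebellar minus neocortical, with its standard error, for the 23 neuronal genes tested at their brightest probe set. Filled points have an adjusted p under 0.05, and Pcp4l1 at 3.17 and Camk2a at -2.42 mark the ends of the range.

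The gene with the greatest difference among the members was Pcp4l1, which encodes a small relative of the calmodulin-binding protein PCP4. Its signal was 11963.8, 11667.8 and 8122.5 on the cerebellar arrays, against 1222.4, 1075.4 and 1159.4 on the neocortical arrays. The groups lay far apart and the neocortical arrays were close to each other. The fitted difference was 3.17 ± 0.15 (SE, 9.03-fold higher in cerebellar astrocytes, limma adjusted p = 2.27e-05), and it passed under all 16 alternatives with differences of 3.01 to 3.37. Pcp4 itself, named for the Purkinje cells in which it is abundant, did not follow. Its signal was 1522.2, 895.2 and 813.7 on the cerebellar arrays, against 1684.2, 1264.7 and 1677.3 on the neocortical arrays. Cerebellar array 1 reached into the neocortical range, and the difference of -0.66 ± 0.26 did not pass (limma adjusted p = 0.152). Without cerebellar array 1, Pcp4 was lower by the same test (difference -0.96, limma adjusted p = 0.0158).

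The promoters of this pair are shown because the paralogs behaved differently between the regions. The windows hold 300 bases of RefSeq sequence on build GRCm38.p6, 250 before to 50 after the annotated start, on the strand of the gene. Capitals mark the TATA box letters TATAAA, which were searched for on both strands.
Pcp4l1, chr1:171196219-171196518, minus strand: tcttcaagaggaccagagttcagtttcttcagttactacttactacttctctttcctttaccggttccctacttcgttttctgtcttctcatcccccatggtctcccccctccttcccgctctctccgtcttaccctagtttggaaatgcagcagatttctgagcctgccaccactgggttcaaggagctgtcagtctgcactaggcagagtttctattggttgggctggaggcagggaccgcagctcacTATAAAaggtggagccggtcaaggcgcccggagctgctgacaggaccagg
Pcp4, chr16:96467356-96467655, plus strand: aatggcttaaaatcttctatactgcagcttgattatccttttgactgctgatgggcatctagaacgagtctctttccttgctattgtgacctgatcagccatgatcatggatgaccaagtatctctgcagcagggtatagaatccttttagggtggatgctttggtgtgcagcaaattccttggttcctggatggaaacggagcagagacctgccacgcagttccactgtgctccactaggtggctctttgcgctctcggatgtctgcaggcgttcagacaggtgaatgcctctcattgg
The letters TATAAA stood at the annotated start of Pcp4l1 and were not in the Pcp4 window. They occurred in 13.6% of 32851 RefSeq promoters of this length, and in 5 of the 38 promoters of members. These belong to 4 of the 23 members with a promoter entry, Dcx, Elavl3, Eno2 and Pcp4l1. The letters TTCAGCACC, 1 arm of the element that REST binds, occurred in 0.371% of the promoters and among the members in that of Syn1 alone. A match describes the letters in the window and shows no binding.

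The remaining calcium and calmodulin genes split by region without a common direction. Of the 9, 6 were tested, Pcp4l1 was higher, Camk2a was lower and 4 did not pass. Camk2a encodes the alpha subunit of calcium/calmodulin-dependent kinase II, which is abundant at excitatory synapses of the forebrain. Its brightest probe set gave 231.5, 408.7 and 344.7 on the cerebellar arrays, against 1249, 2559 and 1253.7 on the neocortical arrays. The highest cerebellar value lay well below the lowest neocortical one, with a difference of -2.42 ± 0.32 (SE, 5.36-fold lower in cerebellar astrocytes, limma adjusted p = 0.00204). It passed under all 16 alternatives, with differences of -2.62 to -1.67. Of its 6 probe sets, 4 were tested and 2 passed, the other at -1.35 ± 0.33 (limma adjusted p = 0.0342). A further probe set, at -1.75 with 2 arrays at the floor, passed only with the array number as a block (limma adjusted p = 0.0473, against 0.068 without it). The last was at -1.16 with 1 array at the floor (limma adjusted p = 0.266).

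The beta subunit gene Camk2b had 257.6, 278.2 and 254.3 on the cerebellar arrays, against 367.5, 412.8 and 416.5 on the neocortical arrays. These groups did not overlap either, but the difference of -0.76 ± 0.25 missed the threshold (limma adjusted p = 0.085). It passed with a floor raised to the 40th percentile (0.048) and without the variance trend (0.0267). Pvalb, the parvalbumin of fast-spiking interneurons and Purkinje cells, went the other way, with 729.3, 984.2 and 944.5 on the cerebellar arrays, against 343.8, 567.5 and 537.2 on the neocortical arrays. Every cerebellar array was above every neocortical one, and the difference was 0.79 ± 0.24 (limma adjusted p = 0.0665, and 0.0401 with the array number as a block). On the values as deposited it also passed (0.0477). Calb1, the calbindin of Purkinje cells, had 211.1, 296.4 and 243.4 on the cerebellar arrays, against 128.2, 295.1 and 207.9 on the neocortical arrays, which overlap.

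The dim members of this group were not tested. Vsnl1, a calcium sensor of the visinin family, was above the controls on every neocortical and no cerebellar array, yet its signals were alike, with 40.4, 144.2 and 132 on the cerebellar arrays, against 102.9, 155.6 and 97.1 on the neocortical arrays. The bar was lower on the neocortical arrays, and the values did not separate. Nrgn, the postsynaptic calmodulin-binding protein neurogranin, ran from 23.5 to 298.9 on the cerebellar and from 17.3 to 182.9 on the neocortical arrays. Calb2, the calretinin of cerebellar granule cells and cortical interneurons, ran from 41.8 to 195.5 on the cerebellar and from 51 to 251.5 on the neocortical arrays. Neither was above the controls throughout a region.

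**Figure D3:**
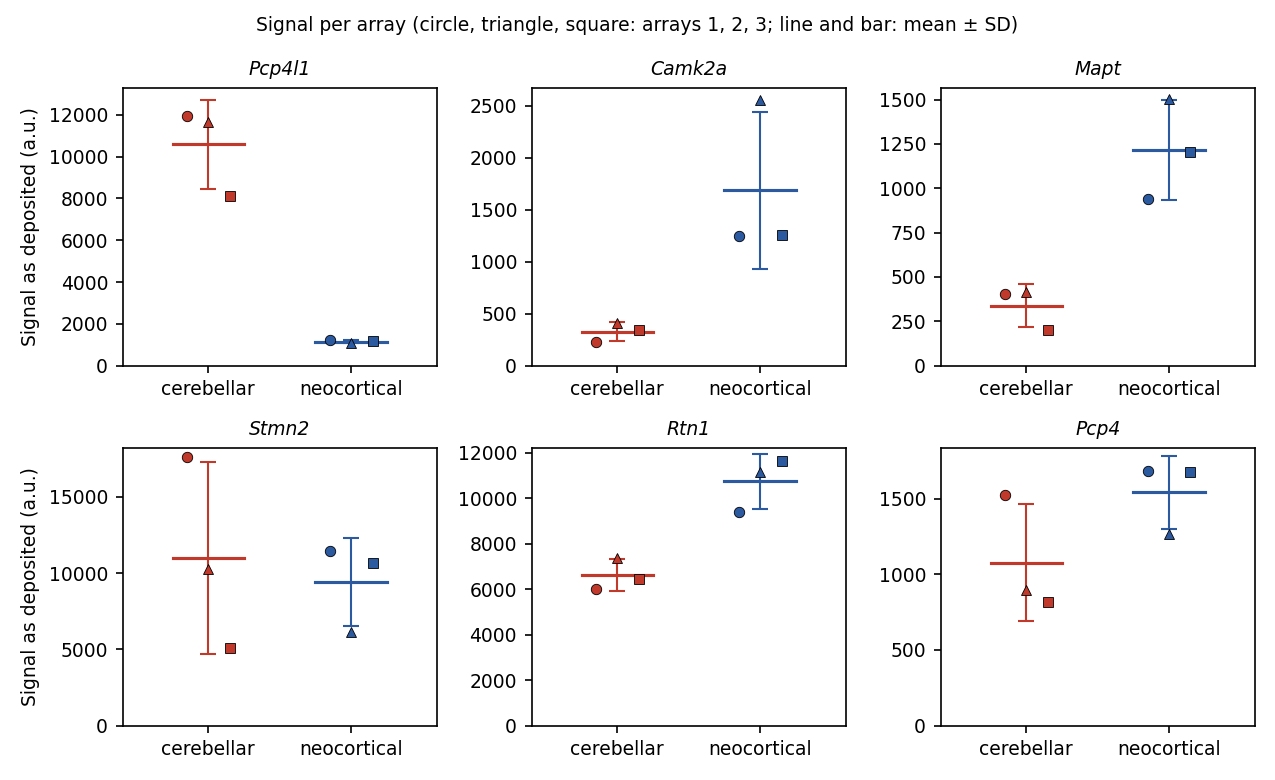
Deposited signal of 6 neuronal genes on each array in arbitrary units, with cerebellar arrays at the left and neocortical arrays at the right of each panel, and the mean ± SD of 3 arrays. Pcp4l1 was higher on cerebellar arrays, Camk2a, Mapt and Rtn1 were lower, and Stmn2 and Pcp4 overlapped.

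Among the 8 microtubule and growth cone genes, 5 were tested, 2 were lower in cerebellar astrocytes and none passed as higher. Mapt encodes tau, which binds the microtubules of axons. The brightest Mapt probe set gave 404.2, 412.5 and 198.7 on the cerebellar arrays, against 941.6, 1502.6 and 1204.2 on the neocortical arrays. Every neocortical value exceeded the highest cerebellar one, with a difference of -2.01 ± 0.35 (SE, 4.02-fold lower, limma adjusted p = 0.00776). The call was lost in 1 of 16 alternatives, with no filter (0.0842). Both other tested Mapt probe sets were lower as well, at -2.24 ± 0.42 with 1 array at the floor (limma adjusted p = 0.0118) and at -1.39 ± 0.29 (limma adjusted p = 0.0178). The fourth probe set did not reach the filter, and it too had no overlap, at 142.6, 142.1 and 80.5 on the cerebellar arrays, against 195.5, 206.5 and 265.9 on the neocortical arrays.

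Stmn3, a stathmin that binds tubulin dimers, had 312.4, 265.7 and 247.7 on the cerebellar arrays, against 539, 819.8 and 652.5 on the neocortical arrays. At this probe set, a suffixed one, the regions were separate, with a difference of -1.41 ± 0.26 (SE, 2.66-fold lower, limma adjusted p = 0.0107). The call was lost in 2 of 14 alternatives, with no filter and without neocortical array 2. Cerebellar array 2 lay below its highest control of 269.2. A dimmer Stmn3 probe set, not tested, overlapped between regions. It had 144.4, 157.9 and 117.7 on the cerebellar arrays, against 213.7, 270.9 and 134.5 on the neocortical arrays. The related Stmn2, a marker of growing axons, was bright and variable. It had 17587.4, 10261.6 and 5091.3 on the cerebellar arrays, against 11447.2, 6144.7 and 10664.9 on the neocortical arrays. The cerebellar arrays spanned a 3.45-fold range that enclosed the neocortical values, themselves 1.86-fold apart. A second probe set gave ranges of 3.42-fold on the cerebellar and 1.88-fold on the neocortical arrays, in the same order of arrays, so the spread was not that of 1 probe set. The difference was 0.14 ± 0.39 (limma adjusted p = 0.866), and its sign turned under median scaling and without cerebellar array 1 or neocortical array 2.

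Map2, the microtubule protein of dendrites, had 5087.6, 8187.2 and 7740.1 at its brightest probe set on the cerebellar arrays, against 10295.8, 12849.1 and 10102.2 on the neocortical arrays. There was no overlap, but the difference of -0.63 ± 0.18 passed only with the array number as a block and under 4 other alternatives (limma adjusted p = 0.0611, and 0.0167 with the block). A dimmer Map2 probe set did pass. It had 645.7, 1144.3 and 854.8 on the cerebellar arrays, against 1794.6, 1687.2 and 1929.7 on the neocortical arrays, a difference of -1.14 ± 0.2 (SE, 2.21-fold lower, limma adjusted p = 0.00887). The other tested Map2 probe sets gave -0.995 (limma adjusted p = 0.0595) and -0.24 (limma adjusted p = 0.588). Gap43, the growth-associated protein of axon tips, was alike in both regions, with 959.1, 642.8 and 894.5 on the cerebellar arrays, against 913.9, 786.8 and 933.6 on the neocortical arrays (difference -0.2 ± 0.2, limma adjusted p = 0.574).

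The other microtubule genes, Stmn4, Tubb3 and Dcx, did not reach the filter. Stmn4 exceeded the controls on no array, with a range of 13.8 to 30.4 on the cerebellar and 13.7 to 26.6 on the neocortical arrays. Tubb3, the tubulin used to stain neurons, ran from 138.9 to 241.7 on the cerebellar and from 71.8 to 200.9 on the neocortical arrays. Dcx, the doublecortin of migrating neurons, ran from 4.1 to 174.7 on the cerebellar and from 13.4 to 284.1 on the neocortical arrays, and none of its 4 probe sets was above the controls throughout either region.

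Nefm, the medium neurofilament subunit, alone of the 4 intermediate filament genes was tested, with 446.9, 436.4 and 507.4 on the cerebellar arrays, against 229.7, 305.7 and 211.7 on the neocortical arrays. The cerebellar values were all higher, but the difference of 0.76 ± 0.27 did not pass (limma adjusted p = 0.109). Nefl, the light subunit, ran from 75.6 to 171.6 on the cerebellar and from 6.2 to 167.5 on the neocortical arrays. The heavy subunit gene Nefh ran from 9.1 to 27 on the cerebellar and from 23.2 to 123.9 on the neocortical arrays. Ina, the alpha-internexin, was above the controls on all neocortical arrays only, but its signals overlapped, from 127.3 to 180.5 on the cerebellar and from 91.8 to 163 on the neocortical arrays.

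Of the 8 genes of vesicle release, 6 were above the controls on all 6 arrays and were tested. The calcium sensor gene Syt1, a synaptotagmin, and its relative Syt11 were lower in cerebellar astrocytes, and the other 4 did not pass. Syt1 had 947.8, 1227.3 and 1262.4 on the cerebellar arrays, against 1746, 1683 and 1768.7 on the neocortical arrays. The regions were apart, with a difference of -0.67 ± 0.15 (SE, 1.59-fold lower, limma adjusted p = 0.0227). This call was lost in 4 of 16 alternatives, with no filter and without each neocortical array in turn. A second Syt1 probe set passed at -0.94 ± 0.24 (limma adjusted p = 0.0404) but not with the array number as a block (0.0547).

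Syt11 belongs to the synaptotagmins that lack calcium binding. Its brightest probe set had 9218.3, 9112.6 and 6693.4 on the cerebellar arrays, against 13344.8, 16853.5 and 11421.9 on the neocortical arrays. The lowest neocortical value exceeded every cerebellar one, with a difference of -0.67 ± 0.16 (SE, 1.59-fold lower, limma adjusted p = 0.0288). The call was lost in 6 of 16 alternatives, among them that without suffixed probe sets, where the brightest remaining one is read. Of the 5 Syt11 probe sets, 4 passed at -0.72 to -0.51, and the fifth was at -0.33 ± 0.15 (limma adjusted p = 0.192).

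The synapsins, which tether vesicles to the cytoskeleton, did not pass. Syn1 had 606.7, 363.5 and 525.5 on the cerebellar arrays, against 204.1, 226.4 and 456.8 on the neocortical arrays (difference 0.65 ± 0.35, limma adjusted p = 0.278). Neocortical array 3 lay inside the cerebellar range. Syn2 had 887.4, 1568.2 and 914.4 on the cerebellar arrays, against 996.5, 1444.7 and 1076.7 on the neocortical arrays, and array 2 was the highest of both regions. Its 4 tested probe sets spanned -0.17 to 0.1, and none passed.

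Stx1a, the plasma membrane syntaxin of vesicle fusion, had 687.5, 924.6 and 1253.9 on the cerebellar arrays, against 840.1, 549.1 and 824.5 on the neocortical arrays. Its 2 tested probe sets had opposite signs, 0.27 ± 0.25 (limma adjusted p = 0.54) and -0.35 ± 0.35 (limma adjusted p = 0.579). Beta-synuclein, Sncb, had 585, 882.9 and 588.7 on the cerebellar arrays, against 401.4, 490.3 and 601.2 on the neocortical arrays, which overlap (difference 0.32 ± 0.25, limma adjusted p = 0.46). Snap25, the partner of syntaxin in vesicle fusion, was not above the controls throughout either region, with 52.4 to 153.8 on the cerebellar and 2.3 to 50.2 on the neocortical arrays. Syt4 ran from 19.5 to 69.4 on the cerebellar and from 64.3 to 168.7 on the neocortical arrays.

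**Figure D4:**
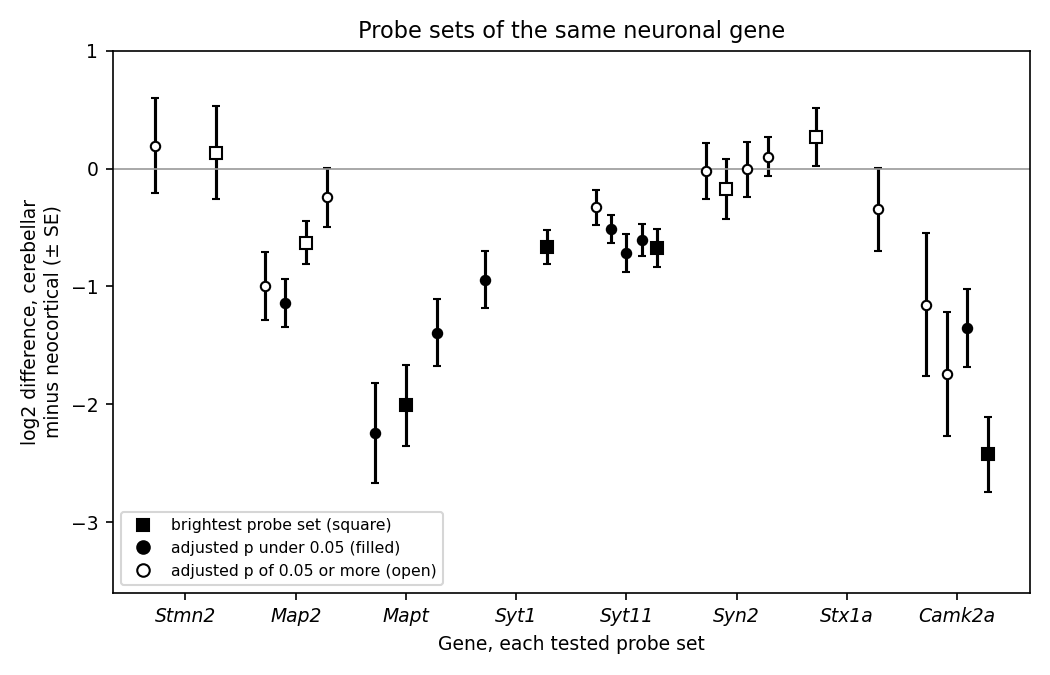
Fitted log2 difference, cerebellar minus neocortical, with its standard error, of each tested probe set of 8 neuronal genes that had more than 1. Squares are the brightest probe sets and filled symbols have an adjusted p under 0.05. The 3 Mapt probe sets lie at -2.24 to -1.39, and the Stx1a pair lies on both sides of 0.

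No gene of the Hu RNA-binding family, which stabilise neuronal messenger RNAs, was above the controls on all 6 arrays. Elavl2 was the single tested member, with 256, 198.9 and 272 on the cerebellar arrays, against 220.9, 178.4 and 268.7 on the neocortical arrays. The regions overlapped, with a difference of -0.06 ± 0.31 (limma adjusted p = 0.934). Dimmer Elavl2 probe sets, not tested, did not run together. One had 152.6, 173.4 and 171.8 on the cerebellar arrays, against 40.2, 87.3 and 17.3 on the neocortical arrays. Another had 114.5, 80.8 and 197.3 on the cerebellar arrays, against 227.7, 281.3 and 192.7 on the neocortical arrays. Elavl4 was above the controls on every neocortical and no cerebellar array, but with overlapping signals of 71.7, 152 and 154.1 on the cerebellar arrays, against 179.6, 138.6 and 99.2 on the neocortical arrays. Elavl3 ran from 7.2 to 187.3 on the cerebellar and from 33.9 to 228.4 on the neocortical arrays.

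All 4 genes of the enzyme, membrane and surface group were above the controls on every array and passed the test, 3 lower and 1 higher in cerebellar astrocytes. Rtn1, a reticulon that shapes the endoplasmic reticulum, had 5991.6, 7364.4 and 6463.7 on the cerebellar arrays, against 9382.4, 11165.2 and 11643.7 on the neocortical arrays. The ranges were narrow and apart, with a difference of -0.65 ± 0.12 (SE, 1.57-fold lower, limma adjusted p = 0.0108). It was lost in 3 of 16 alternatives, with no filter, without the variance trend and without neocortical array 3. Uchl1, a ubiquitin hydrolase abundant in neurons, had 3155.2, 3910.2 and 3104.3 on the cerebellar arrays, against 5522, 4331.6 and 4973.1 on the neocortical arrays. It was lower, with a difference of -0.54 ± 0.14 (SE, 1.45-fold, limma adjusted p = 0.0371), and the highest cerebellar and lowest neocortical arrays were close. Its call was lost in 7 of 16 alternatives, namely with no filter (0.125), without the variance trend (0.0996) and without any 1 of 5 arrays.

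Thy1, a surface glycoprotein of neurons, thymocytes and some fibroblasts, had 2709.5, 2646.2 and 3957.3 on the cerebellar arrays, against 5630.5, 4052.2 and 5995.2 on the neocortical arrays. Cerebellar array 3 nearly reached neocortical array 2, and the difference of -0.74 ± 0.2 passed narrowly (SE, 1.67-fold lower, limma adjusted p = 0.0474). It did not pass in 7 of 16 alternatives, in which the adjusted p reached 0.203. Eno2, the neuron-specific enolase of glycolysis, was the other gene that was higher, with 1818.4, 1509.3 and 1704.4 on the cerebellar arrays, against 1006.4, 946.7 and 1199.4 on the neocortical arrays. The regions did not overlap, with a difference of 0.61 ± 0.15 (SE, 1.52-fold higher, limma adjusted p = 0.0354). The Eno2 call was lost in 8 of 15 alternatives, with median scaling (0.0784), with no filter (0.0719), without the variance trend (0.0586) and without any 1 of 5 arrays.

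How many of these calls stood depended on single arrays. Of the 10 called genes, 5 stayed called without neocortical array 1, 5 without neocortical array 2 and 5 without neocortical array 3. The numbers were 7, 9 and 7 without cerebellar array 1, 2 or 3. Pcp4l1, Camk2a and Mapt stayed called without any single array. With no filter on dim probe sets 2 stayed called, Pcp4l1 and Camk2a, and without the variance trend 5 did.

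The sum of signal over the members' brightest probe sets was 67632, 65785 and 53762 on the cerebellar arrays, against 69726, 72164 and 70727 on the neocortical arrays. Leaving out the bright Stmn2, it was 50045, 55523 and 48670 on the cerebellar arrays, against 58279, 66019 and 60062 on the neocortical arrays. Each cerebellar sum was below each neocortical one, and a few bright genes carry such a sum.

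Genes of the further lists were set against the controls at their brightest probe set alone, a stricter rule than that for the members. By any probe set, 62.8% of all genes were above the controls on all 6 arrays. Of all genes tested, 7.36% were lower and 5.3% higher. Other genes of neurons did not share a direction. Of 43 further pan-neuronal genes on the array, 27 were above the controls on all 6 arrays, 34 were tested, 4 were higher and 5 lower in cerebellar astrocytes, with a median of -0.06. Cntn1, a contactin of axon surfaces, had a difference of 2.53 ± 0.22 (limma adjusted p = 0.000255), and the calcium sensor gene Ncald had 1.03 ± 0.12 (limma adjusted p = 0.000986). Chgb, the secretory granule protein chromogranin B, had -2.07 ± 0.33 (limma adjusted p = 0.00535), and Cend1 had -1.41 ± 0.25 (limma adjusted p = 0.00839). The summed signal of this list was 79951 to 84662 on the cerebellar arrays, against 72794 to 73667 on the neocortical arrays, the opposite order to that of the 36 members. Within it, Cntn1 had 7715.2, 11452.6 and 12418.4 on the cerebellar arrays, against 1463.8, 2296.2 and 1692.1 on the neocortical arrays. The order of these sums depends on that gene and is not a trait of the whole list.

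Of 19 genes of immature neurons and progenitors, 9 were above the controls on all 6 arrays and 3 on none. They gave 1 higher and 3 lower of 11 tested, with a median of -0.37. Dpysl3, of growth cones, was higher at 0.85 ± 0.13 (limma adjusted p = 0.00442). Sox4, Igfbpl1 and Nnat were lower, at -0.43, -2.82 and -1.8 (limma adjusted p = 0.0119, 0.0154 and 0.021). With the array number as a block 2 genes of this list were higher. With no filter 0 were higher and 0 lower, and without the variance trend 1 was higher and 0 were lower. Of 17 genes of cortical neurons, 4 were above the controls on all 6 arrays and 2 on none, and 3 of 9 tested were lower. Fezf2, a factor of deep-layer cortical neurons, had -4.26 ± 0.28 (limma adjusted p = 6.6e-05) with 2 arrays at the floor, Rasgrf2 had -2.04 and Gad1, the enzyme of GABA synthesis, had -1.83 (limma adjusted p = 0.00174 and 0.0233). Fezf2 lay below the highest control on every cerebellar array, and Rasgrf2 and Gad1 on cerebellar array 2, so the size of these differences is uncertain. Of 16 genes of cerebellar neurons, 3 were above the controls on all 6 arrays and 1 on none, and 1 of 4 tested passed, as lower. Car8, a carbonic anhydrase relative of Purkinje cells, had -2.73 ± 0.44 (limma adjusted p = 0.00613) with 1 array at the floor. Its cerebellar signals of 216, 204.4 and 59.7 lay below the highest control on arrays 2 and 3, so the size of the difference is uncertain. The Car8 probe set is a suffixed one. With suffixed probe sets left out, 1 gene of this list was higher and 0 were lower. With no filter, or with the filter at the 60th percentile, 0 were higher and 0 lower. Rora and Cacna1a, also named from that list, were at -0.27 and 0.33 and did not pass (limma adjusted p = 0.35 and 0.515).

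Astrocyte markers were read in the same way. Of 17, 16 were above the controls on all 6 arrays, the exception being the connexin gene Gjb6. Of the microglial genes 13 of 15 were above as well, and of the fibroblast genes 12 of 13, so the count does not identify the cells. The astrocyte list also leaned toward the neocortex, with 7 lower and 1 higher in cerebellar astrocytes and a median of -0.58. The lowest adjusted p values among them were those of Ntsr2 (-3.7 ± 0.39, limma adjusted p = 0.0007), Fabp7 (-0.61 ± 0.08, limma adjusted p = 0.00272), Acsbg1 (-1.2 ± 0.18, limma adjusted p = 0.00456) and the glutamate transporter gene Slc1a3 (-0.8 ± 0.13, limma adjusted p = 0.00588). Their summed signal was 489760 to 643740 on the cerebellar arrays, against 616030 to 687500 on the neocortical arrays.

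Markers of other cells differed in how many exceeded the controls. Of 16 oligodendrocyte genes, 6 were above on all 6 arrays and 2 on none. They gave 1 higher and 2 lower of 9 tested, Mbp at 2.65 with 1 array at the floor and Olig1 and Olig2 at -1.74 and -2.58 (limma adjusted p = 0.0134, 0.00129 and 0.000499). The sum of the oligodendrocyte genes was 56654 to 88840 on the cerebellar arrays, against 72913 to 87433 on the neocortical arrays. Most of it came from Cnp, at 44674.1 to 69711.7 on the cerebellar and 38512.3 to 47826.6 on the neocortical arrays. Of 15 microglial genes, 13 were above the controls on all 6 arrays. None passed, and their sum varied within regions, from 12004 to 54732 on the cerebellar and from 18009 to 51034 on the neocortical arrays. Csf1r and Ctss, named from this list, were at 0.002 and 0.13 (limma adjusted p = 0.999 and 0.889). Of 16 endothelial and mural genes, 6 were above the controls on all 6 arrays and 3 on none. They gave 2 lower of 8 tested, Kdr at -1.56 and Acta2 at -0.38 (limma adjusted p = 0.00304 and 0.0354), with sums of 133820 to 162790 on the cerebellar arrays, against 159860 to 187710 on the neocortical arrays. Most of these sums came from Acta2, at 84011.8 to 105575.4 on the cerebellar and 103748.4 to 120178.7 on the neocortical arrays.

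Of 13 fibroblast genes, 12 were above the controls on all 6 arrays. They gave 1 higher and 2 lower of 13, Fn1 at 0.93 and Ogn and Islr at -2.44 and -1.06 (limma adjusted p = 0.00344, 0.000442 and 0.000478). With the array number as a block 3 were higher, and with no filter 0 were higher and 2 lower. Their sum was 127910 to 312020 on the cerebellar arrays, against 129230 to 181200 on the neocortical arrays. Of 12 ependymal and choroid plexus genes, 8 were above the controls on all 6 arrays and 1 on none. They gave 3 lower of 11, Folr1 at -2.07, Otx2 at -3.6 and Kcnj13 at -2.46 (limma adjusted p = 0.000208, 0.00139 and 0.00741). Otx2 lay below the highest control on cerebellar arrays 2 and 3, and Kcnj13 on cerebellar array 1, so the size of their differences is uncertain. That sum was 11198 to 26306 on the cerebellar arrays, against 24575 to 32274 on the neocortical arrays. The part of these cells in the neuronal signal was not tested.

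The ratio of 3′ to 5′ signal of the Gapdh control, which gauges RNA integrity and labelling, was 0.913, 1.003 and 1.071 on the cerebellar arrays, against 0.8719, 0.8651 and 0.8834 on the neocortical arrays. The actin ratio was 1.485, 1.419 and 1.62 on the cerebellar arrays, against 1.4, 1.352 and 1.444 on the neocortical arrays. The Gapdh ratio did not overlap between regions, and its part in the differences above was not tested.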

How the data were processed

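Total RNA was measured on 6 one-colour arrays, 3 cerebellar and 3 neocortical, as biotin-labelled amplified RNA per the labels. The authors deposited 1 linear intensity per probe set and array. The 2% trimmed mean was 1500 on every array. The labels name neither a summarisation method and software nor detection calls. Array medians ran from 284.7 to 361.2, so the 45037 mouse probe sets were quantile normalized, floored at 62.16 (20th percentile) and taken to log2, and the 27022 whose mean reached the 40th percentile entered the test. The two-sided fit used limma 3.58.1 in R 4.3.3 (lmFit, eBayes with a variance trend), region as the only term, and Benjamini-Hochberg adjustment over all probe sets tested. It was tested on simulated data. A gene's brightest probe set had the highest mean log2 signal, and signals of different genes, which depend on the probes, give no order of expression.

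Names came from the platform annotation, which gave 34945 probe sets 1 symbol, 932 several and 9160 none. Of the first, 34741 took the symbol of the GRCm38.p6 RefSeq table by Entrez ID. Promoters came from RefSeq, 23 of 36 members matching. The members and the 10 gene lists were chosen with earlier results of these data known. Named with array values were members that passed, that were above the controls on all 6 arrays, or that were above them on 3 arrays of 1 region and none of the other. From the other lists up to 4 genes with the smallest adjusted p were named, or the 2 brightest where fewer than 2 passed. The array values of Elavl2, of the fourth Mapt probe set and of Car8 were added after they were seen.

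The correlation of deviations from the group mean was 0.18, 0.188 and 0.101 between arrays of the same number and -0.182 to 0.0225 between the others. The array number was therefore treated as a possible pairing and entered as a block in an alternative fit. The calls come from the fit without the block, except where the block is named. Alternatives were other scalings, floors, filters, variance models and probe set rules, the array number as a block, and leaving out each array. The number of arrays limits the precision.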

Additional observations from a re-analysis of the deposited data

How the results depend on the processing

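With the replicate block, 3 member genes were higher and 9 lower, against 2 and 8 without it, because Map2 and Pvalb passed. By probe set the counts were 3 and 17, and the block changed no other call by brightest probe set. Of all probe sets, 1557 were then higher and 1785 lower. Median scaling gave 819 higher and 2105 lower probe sets of all tested. It gave 1 member probe set and 1 member gene higher, and 19 member probe sets and 9 member genes lower. Without a filter 577 probe sets were higher and 704 lower, and 1 member gene and 1 member probe set passed in each direction, with more dim probe sets in the adjustment. Without the variance trend 676 probe sets were higher and 914 lower, with 1 member probe set higher and 10 lower, and 1 member gene higher and 5 lower. With suffixed probe sets left out, Eno2 and Stmn3 had no tested probe set, and 1 member probe set and 1 member gene were higher. Syt11, then read at another probe set, was at -0.329 (limma adjusted p 0.186). A filter at the 60th percentile put the median member difference at -0.536. Leaving out 1 array gave 547 to 1230 higher and 654 to 1554 lower probe sets, 1 to 2 higher and 5 to 15 lower member probe sets, 1 to 2 higher and 4 to 8 lower member genes, and a median of -0.449 to -0.238. The sign turned for genes that did not pass. Without 1 array Elavl2 ran from -0.152 to 0.072, Stmn2 from -0.276 to 0.594 and Calb1 from -0.173 to 0.45. It also turned for Elavl2 (0.129 as deposited), Stmn2 (-0.069 with median scaling), Calb1 (-0.012 with the higher floor) and Stx1a (-0.347 without suffixed probe sets, -0.04 as the mean of its probe sets). The cause of these changes was not tested. Detection counts stayed within 1.5 times under all 7 alternatives.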
